A study of Mus musculus with 9 samples.

Results

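The genes described here are 5 signal transducers and activators of transcription (Stat2, Stat3, Stat5a, Stat5b and Stat6) and 4 feedback inhibitors of cytokine signalling (Socs1, Socs2, Socs3 and Cish). They were picked by gene symbol, with earlier results of these data known, and are 9 of the 31167 genes in the expression table. RNA was sequenced from primary tubular epithelial cells of C57BL/6 mouse kidney, in 3 groups of 3 libraries. Sham cells were the negative control. H/R cells were kept for 6 h at 1.0% oxygen without glucose and then for 18 h in complete medium under normal oxygen, a culture model of ischemia and reperfusion. EGR1OV cells were transfected with a plasmid that expresses the transcription factor Egr1 from the CMV promoter, and their labels list no hypoxia. The study describes Sham cells as left without treatment, and no empty vector group was analysed here. In EGR1OV the effect of Egr1 and that of transfection with DNA therefore cannot be told apart. The labels also do not say that the 3 libraries of a group came from separate isolations, so the p-values measure the spread between these libraries, which may be technical.

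Stat proteins wait in the cytoplasm until a Janus kinase (Jak) at an activated cytokine receptor phosphorylates them. They then pair, enter the nucleus and bind DNA. Among the genes they switch on are the Socs genes and Cish, whose products block the receptor or the kinase and so end the signal. In kidney tubule cells this pathway carries the response to interferons, to cytokines of the Il6 family and to growth hormone.

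Expression is given as FPKM (fragments per kilobase of exon, relative to library size), a level per exon length that allows genes to be set beside each other. Recovered depth was 16183617 to 18384026 reads per library, and the median coefficient of variation between replicates was 3.5% to 3.88%. Mean Egr1 was 42.6 ± 2.84 FPKM in EGR1OV, where the labels put the plasmid, against 6.40 ± 0.443 in Sham and 7.88 ± 0.599 in H/R (SD, n = 3 each). Libraries of one group stood apart in Gm23935, which ranged from 1494 to 21700 FPKM over the 9 libraries, and member calls that changed with its level as a covariate are given beside the gene. The tubule genes Krt8, Krt18, Epcam and Cdh16 were at 19.6 FPKM or more in each group mean, while Umod was listed at 0 and the proximal tubule transporter Slc34a1 was at or near 0. Leukocyte markers were also present. Their summed level was 154 to 160 FPKM in Sham libraries, 130 to 140 after H/R and 28.1 to 33.3 with the plasmid, and 9 of 9 tested leukocyte markers were lower in EGR1OV than in Sham. The summed tubule list was 1915 to 1952 FPKM in Sham libraries, 1771 to 1850 after H/R and 1251 to 1360 with the plasmid. In bulk RNA, fewer cells of a type and less RNA per cell cannot be told apart, and the part of these markers in the results below was not tested.

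All 9 genes were expressed, with 44 reads or more in every library. In Sham cells the order of the mean levels was Stat6, Stat3, Socs2, Stat5b, Stat2, Socs1, Socs3, Cish and Stat5a. The values of Stat2 and Socs1 overlapped in Sham, as did those of Socs1 and Socs3, while the other neighbours in that order did not. In EGR1OV the order was Stat2, Stat6, Stat3, Socs1, Stat5b, Socs2, Cish, Socs3 and Stat5a, and only Cish and Socs3 overlapped among neighbours. Stat2 thus went from the fifth place to the first and Socs1 from the sixth to the fourth. After H/R the order differed from Sham only in that Socs1 stood above Stat2.

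**Figure D1:**
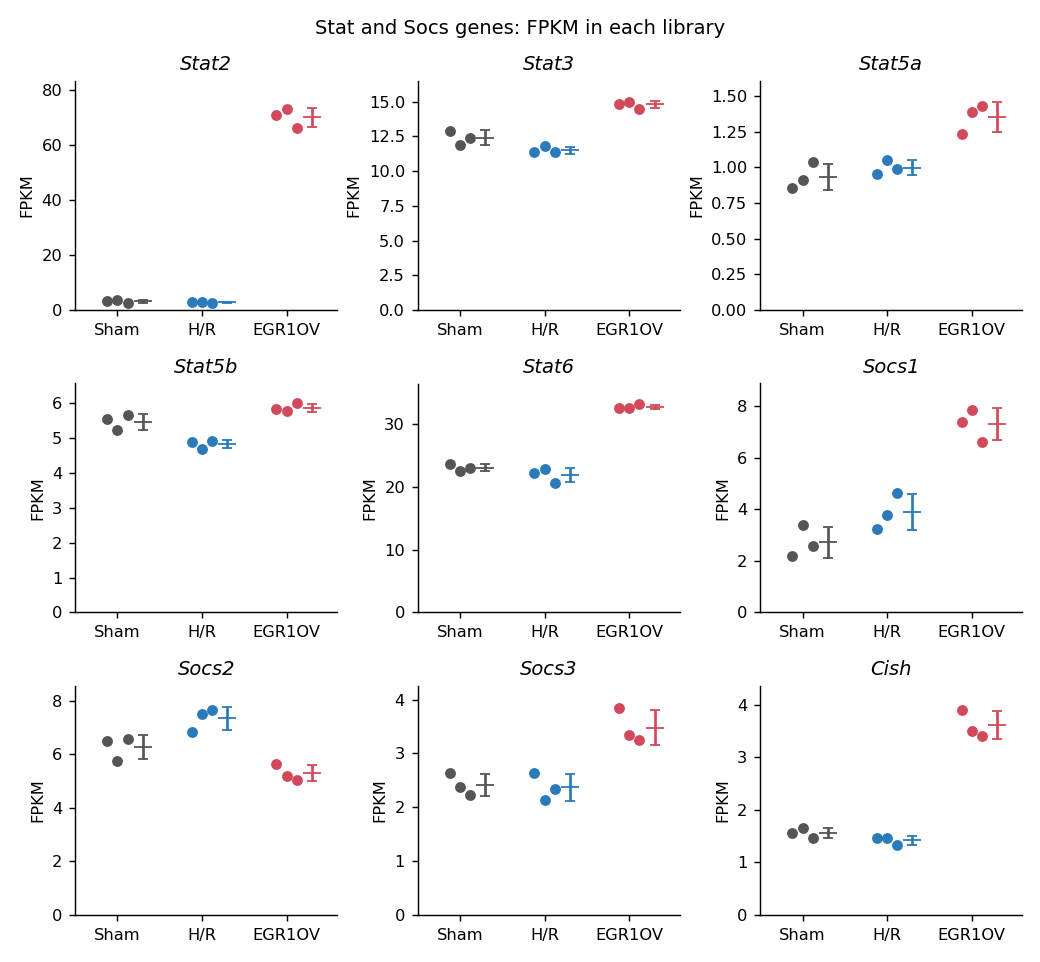
Level of each gene in FPKM (vertical axis, from 0, with its own scale for each gene) in Sham, H/R and EGR1OV, with 1 point per library and the mean ± SD (n = 3) beside the points. In all 9 genes the EGR1OV points do not overlap the Sham points, with Socs2 alone lower, and Stat2 goes from a mean of 3.23 to 70.2 FPKM.

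Sequences around the transcript start of 4 of the genes are shown because they hold letters that Stat complexes or Egr1 are known to bind. RefSeq promoter windows (GRCm38.p6, from 250 bases before to 50 bases after a transcript start) were found for 8 of the 9 genes, in 10 windows. 4 motifs were searched on both strands. The first was the interferon-stimulated response element (ISRE) read by the Stat2 and Irf9 complex, spelled GAAA, any 2 bases and GAAA again. The others were the Stat dimer site (GAS, TTCNNNGAA), the wider site that Stat6 prefers, with 4 free bases between TTC and GAA, and an Egr1 site (GCGNGGGCG). Of 32851 windows of 300 bases, 3.44% held the ISRE letters, 8.3% the GAS, 6.95% the wider spacing and 5.55% the Egr1 site. Matches are in capitals below, read 5′ to 3′ on the strand of the gene.
Stat2, chr10:128270261-128270312, plus strand: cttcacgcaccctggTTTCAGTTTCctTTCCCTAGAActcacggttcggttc
Socs1, chr16:10785589-10785634, minus strand: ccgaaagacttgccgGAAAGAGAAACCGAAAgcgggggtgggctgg
Socs3, chr11:117969497-117969562, minus strand: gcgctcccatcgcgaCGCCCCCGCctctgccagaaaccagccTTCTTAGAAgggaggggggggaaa
Cish, chr9:107296649-107296678, plus strand: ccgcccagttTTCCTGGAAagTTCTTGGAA

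The Stat2 stretch holds an ISRE match that begins 222 bases upstream of the start, followed by a match to the wider spacing. The Socs1 stretch holds a pair of ISRE matches that share their middle GAAA and begin 83 and 77 bases upstream. The Socs3 stretch holds an Egr1 match 181 bases upstream, on the opposite strand, and a GAS match 154 bases upstream. In Cish a pair of GAS matches begins at bases 1 and 12 of the transcript. All these distances are from RefSeq starts. The gene spans given below for Socs3 and Cish begin further upstream, so the matches of these genes lie inside those spans. No match was found in the windows of Stat3, Stat5a, Stat5b and Stat6, which says only that these letters are not in these windows. A match is a description of the sequence, and binding was not measured.

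EGR1OV was set against Sham to ask which of the genes respond to the Egr1 plasmid. Stat2, Stat6, Socs1, Socs3 and Cish rose, none fell, and Stat2 rose far more than the others. Of the 9 genes 5 were called higher, against 9.87% of the 13985 genes tested, and 0 lower, against 6.51% (16.4% in either direction). A call needed an adjusted p under 0.05 by limma (Benjamini-Hochberg over all genes tested) together with a 1.3-fold difference or more on the log2(FPKM + 1) scale, which understates the change of low genes. With no fold threshold 8 of 9 genes had an adjusted p under 0.05, against 45.9% of all genes. The groups did not overlap in 9 of 9 genes, against 55.7% of all genes tested, with 8 higher (31.0% of all genes) and 1 lower (24.6%). For each of the 9 an exact permutation test (two-sided) gave p = 0.1, the smallest that 3 against 3 libraries can give. The median log2 change of the 9 genes was 0.39, and that of all genes tested was 0.0172.

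All 9 are protein-coding, and their positions are given in GRCm38. Stat2 (ENSMUSG00000040033, chromosome 10, 128270559 to 128292849, plus strand) is the Stat that carries the type I interferon signal together with Irf9. Its levels were 3.2, 3.77 and 2.71 FPKM in Sham and 71.0, 73.3 and 66.4 FPKM in the EGR1OV libraries. Every EGR1OV library thus stood far above every Sham library. The log2 change was 4.08 (SE 0.085, limma adjusted p 4.92e-10), and mean FPKM was 21.8 times that of Sham. The Sham values rest on 265 to 390 reads and the EGR1OV values on 6622 to 7100.

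Stat6 (ENSMUSG00000002147, chromosome 10, 127642986 to 127660957, plus strand), which answers Il4 and Il13, was the most abundant of the 9 genes in Sham. Its levels were 23.7, 22.5 and 23.0 FPKM in Sham and 32.6, 32.7 and 33.2 FPKM in EGR1OV. The log2 change was 0.49 (SE 0.038, limma adjusted p 6.17e-06), a ratio of 1.42. The SD of the 3 EGR1OV libraries was 0.321 FPKM, and all were above the Sham libraries. The gene overlaps its neighbour Nab2 by 40 bases on the opposite strand, and Nab2 did not pass 4.04 FPKM in any library.

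Stat3 (ENSMUSG00000004040, chromosome 11, 100885098 to 100939540, minus strand) transmits the signal of Il6, Lif and related cytokines through the receptor chain gp130. It was at 12.9, 11.9 and 12.4 FPKM in Sham and at 14.8, 15 and 14.5 FPKM in EGR1OV. The values did not overlap and the limma adjusted p was 5.88e-04, but the log2 change of 0.24 (SE 0.037) was under the fold threshold. Stat3 was therefore not called.

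Stat5a and Stat5b carry signals of growth hormone, prolactin and several interleukins. Stat5a (ENSMUSG00000004043, chromosome 11, 100859351 to 100885169, plus strand) was the lowest of the 9 genes, at 0.853, 0.909 and 1.04 FPKM in Sham and 1.23, 1.39 and 1.43 FPKM in EGR1OV. Its log2 change of 0.28 (SE 0.068, limma adjusted p 0.00771) was under the threshold with a pseudocount of 1. It was past the threshold with a pseudocount of 0.1 (0.49) and by limma voom on recovered reads (0.52). Stat5b (ENSMUSG00000020919, chromosome 11, 100780731 to 100850724, minus strand) was at 5.54, 5.23 and 5.68 FPKM in Sham and 5.83, 5.78 and 6.02 FPKM in EGR1OV. Its log2 difference was 0.0849 (SE 0.041, limma adjusted p 0.123), the smallest among the 9 genes.

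Stat5b, Stat5a and Stat3 lie side by side on chromosome 11. Stat5b and Stat5a are 8626 bases apart, and Stat5a and Stat3 overlap by 72 bases on opposite strands. Use of strand in counting is not given in the sources used here, so reads from that overlap cannot be told apart. Stat5a and Stat5b also share 608 exonic stretches of 50 bases, 8.21% of those of Stat5a and 11% of those of Stat5b. How reads from these stretches were assigned is not given in the sources used here. Their effect on the separate levels was not tested.

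Socs1 (ENSMUSG00000038037, chromosome 16, 10783808 to 10785536, minus strand) blocks Jak kinases directly and is a main brake on interferon signalling. It was at 2.19, 3.38 and 2.58 FPKM in Sham and at 7.4, 7.87 and 6.62 FPKM in EGR1OV. The log2 change was 1.17 (SE 0.13, limma adjusted p 7.88e-05), a ratio of 2.68. The 3 EGR1OV libraries were all above the Sham libraries, with 136 to 157 reads against 44 to 72. The gene model in the table differs from GENCODE M21 for Socs1 only among the 9 genes. The table's values fit an exon length of 1220 bases, against 2908 in GENCODE M21, which bears on its level beside other genes and not on its changes between groups. Socs1 had the widest spread between Sham replicates among the 9 genes relative to the mean, 2.72 ± 0.608 FPKM (SD, n = 3).

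Cish (ENSMUSG00000032578, chromosome 9, 107296026 to 107302784, plus strand), a Stat5 target that binds cytokine receptors, was at 1.56, 1.66 and 1.46 FPKM in Sham and at 3.91, 3.51 and 3.41 FPKM in EGR1OV. The log2 change was 0.85 (SE 0.062, limma adjusted p 4.43e-06), a ratio of 2.31. After Stat2 and Socs1 this was the third largest change of the 9. An overlapping pseudogene on the opposite strand, Gm17040, was at 0.362 FPKM or less in every library.

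Socs3 (ENSMUSG00000053113, chromosome 11, 117966079 to 117970047, minus strand), which binds gp130 and limits Stat3 activation, was at 2.63, 2.38 and 2.22 FPKM in Sham and at 3.85, 3.34 and 3.25 FPKM in EGR1OV. The log2 change was 0.39 (SE 0.078, limma adjusted p 0.0027), a ratio of 1.44 and just past the fold threshold. The call was lost without Sham replicate 3 (0.35) and without EGR1OV replicate 1 (0.33), and also after median-ratio scaling (0.37), after quantile normalization (0.33) and with the Gm23935 level as a covariate (0.36).

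Socs2 (ENSMUSG00000020027, chromosome 10, 95385362 to 95417180, minus strand), the brake on growth hormone receptor signalling, was the member with lower values in EGR1OV. It was at 6.5, 5.74 and 6.58 FPKM in Sham and at 5.62, 5.2 and 5.04 FPKM in EGR1OV. The log2 difference was -0.21 (SE 0.062, limma adjusted p 0.0211), which was under the fold threshold, so Socs2 was not called in this comparison.

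**Figure D2:**
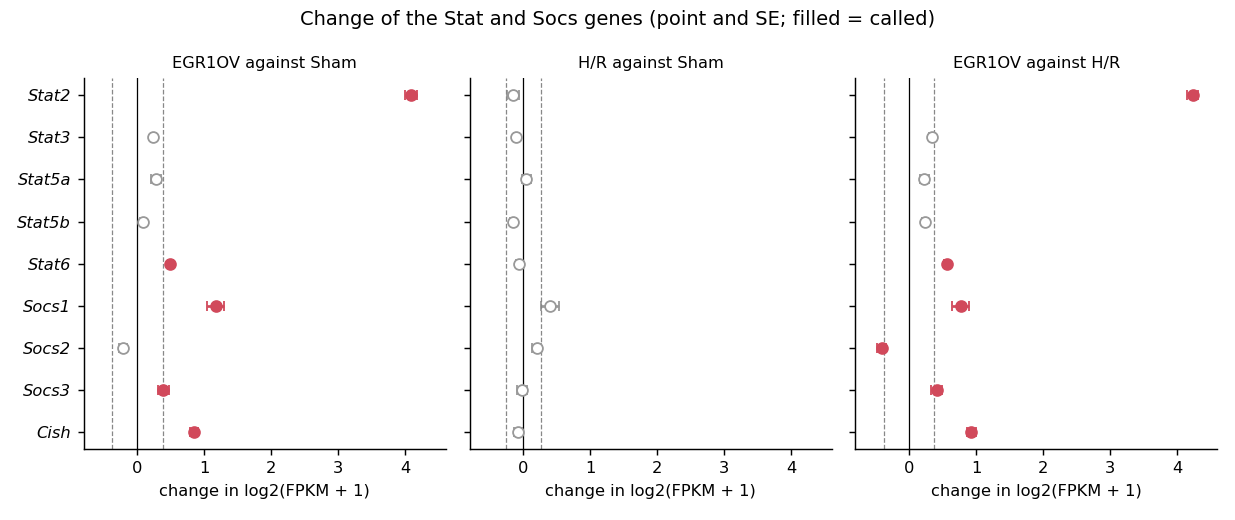
Change of each gene (rows) on the log2(FPKM + 1) scale in the 3 comparisons (panels), as a point with its SE from limma, filled where called. Dashed lines are the fold thresholds of 1.3 (EGR1OV comparisons) and 1.2 (H/R against Sham). Stat2 stands at 4.08 and 4.23 in the EGR1OV comparisons, and no point is filled for H/R against Sham.

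The makeup of the summed Stat level changed with Stat2. Summed over the 5 Stat genes, EGR1OV was at 125 ± 3.35 FPKM, Sham at 45.1 ± 0.986 and H/R at 42.1 ± 1.36 (SD, n = 3 each). Stat2 was 7.16% ± 1.26 of that sum in Sham and 56.1% ± 1.33 in EGR1OV (SD, n = 3 each). Over the same groups Stat6 went from 51.1% to 26.3% of the sum and Stat3 from 27.5% to 11.8%, although neither fell in FPKM. Summed over the 4 Socs and Cish genes, EGR1OV was at 19.7 ± 1.26 FPKM, Sham at 13.0 ± 0.174 and H/R at 15 ± 0.9 (SD, n = 3 each). Socs2 held 48.4% of this sum in Sham and 26.9% in EGR1OV. Socs1 went from 20.9% to 37.1% and Cish from 12.1% to 18.3%. These shares are descriptions of the levels above and carry no test of their own.

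**Figure D3:**
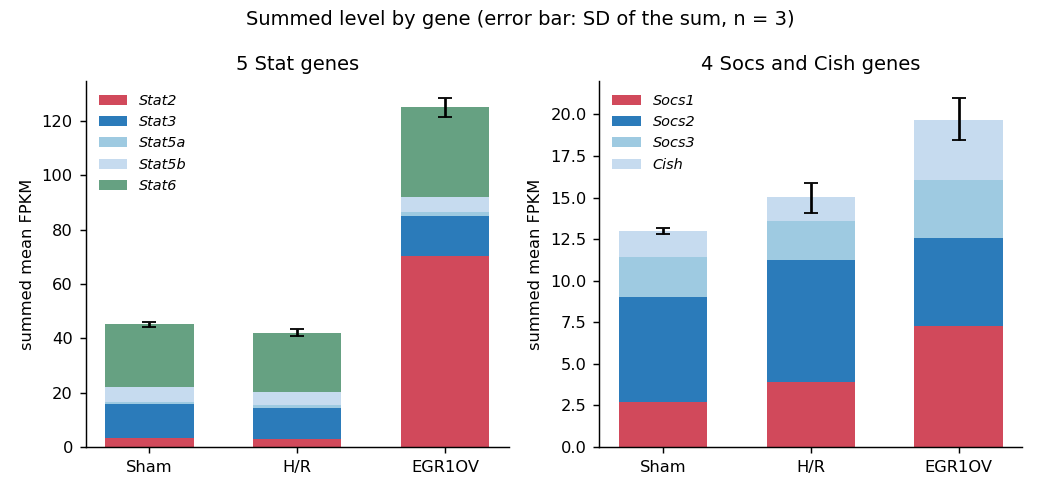
Mean FPKM stacked by gene (vertical axis, from 0) for the 5 Stat genes and for the 4 Socs and Cish genes in Sham, H/R and EGR1OV, with the SD of the summed level (n = 3). Stat2 fills 56.1% of the EGR1OV column of Stat genes, and Socs1 37.1% of the EGR1OV column of Socs and Cish genes.

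H/R was set against Sham to ask whether the 9 genes respond to hypoxia and reoxygenation. No member was called by limma, against 4.25% of all genes tested (1.6% higher and 2.65% lower), where a call needed a 1.2-fold difference beside the same adjusted p. At an unadjusted p under 0.05 there were 4 of 9 genes, and limma voom on recovered reads called 0 of 9. With no fold threshold 1 of 9 (Stat5b) had an adjusted p under 0.05, against 11.7% of all genes. The groups did not overlap in 3 of 9 genes, against 33.6% of all genes tested, with Socs2 higher (11.8% of all genes) and Stat3 and Stat5b lower (21.8%). The median log2 change was -0.0687 for the 9 genes and -0.0298 for all genes tested. This comparison shares its Sham libraries with the one above.

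Stat5b had the lowest adjusted p for H/R. It was at 4.9, 4.69 and 4.91 FPKM in the H/R libraries, below all Sham libraries, with a log2 difference of -0.15 (SE 0.041, limma adjusted p 0.0449) that was under the fold threshold. Stat3 was at 11.4, 11.8 and 11.4 FPKM, also below all Sham libraries, with a log2 difference of -0.10 (limma adjusted p 0.116). Stat2, at 2.98, 2.79 and 2.58 FPKM, overlapped Sham (log2 difference -0.15, limma adjusted p 0.278). Neither gene passed the test. Stat6 was at 22.3, 22.9 and 20.7 FPKM and Stat5a at 0.953, 1.05 and 0.988 FPKM, and both overlapped Sham.

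Among the feedback genes, Socs1 had the largest log2 difference after H/R. It was at 3.24, 3.79 and 4.62 FPKM, with a log2 difference of 0.40 (SE 0.13, limma adjusted p 0.084), and the lowest H/R library lay below the highest Sham library. Without Sham replicate 2 the difference was 0.52 with a limma adjusted p of 0.0418, so the lack of a call rested on that library. Socs2 was at 6.84, 7.49 and 7.67 FPKM, above all Sham libraries, with a log2 difference of 0.20 (SE 0.062, limma adjusted p 0.0718). Socs3, at 2.63, 2.13 and 2.34 FPKM, and Cish, at 1.46, 1.47 and 1.33 FPKM, overlapped Sham, with log2 differences of -0.0203 and -0.0817. The sign for Socs3 turned under 5 alternatives.

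EGR1OV and H/R were also compared directly, at a fold of at least 1.3. Of the 9 genes 6 were called, against 18.9% of all genes tested, with 5 higher in EGR1OV (11.9% of all genes) and 1 lower (6.94%). Over all genes the share of calls that were higher in EGR1OV was 63.2% as deposited, 50.6% with median-ratio scaling and 42.5% with quantile normalization. With no fold threshold 9 of 9 genes had an adjusted p under 0.05, against 51.0% of all genes. The groups did not overlap in 9 of 9 genes, against 58.6% of all genes tested, with 8 higher (36.6%) and 1 lower (22.0%). The log2 differences were 4.23 for Stat2, 0.56 for Stat6, 0.77 for Socs1, 0.41 for Socs3 and 0.93 for Cish, with limma adjusted p-values from 3.76e-10 (Stat2) to 0.00177 (Socs3). The genes called higher were thus those also called against Sham.

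Socs2 was the gene called lower in EGR1OV than in H/R. Its log2 difference was -0.41 (SE 0.062, limma adjusted p 4.86e-04), with a ratio of mean levels of 0.721. It was the one gene whose H/R libraries all lay above Sham and whose EGR1OV libraries all lay below Sham. The call was lost without H/R replicate 3 (-0.38) and without EGR1OV replicate 3 (-0.38), and with the Gm23935 level as a covariate (-0.36). Socs3 lost its call against H/R without H/R replicate 2 (0.36) and without EGR1OV replicate 1 (0.35), after median-ratio scaling (0.36) and quantile normalization (0.31), and with the Gm23935 covariate (0.33).

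The Jak genes encode the kinases that phosphorylate Stat proteins. Of the 4 Jak genes 3 were called higher and none lower in EGR1OV than in Sham, beside 9.87% and 6.51% of all genes tested. Tyk2, a kinase of the type I interferon receptor, rose from 4.70 ± 0.132 to 7.80 ± 0.378 FPKM (SD, n = 3), a log2 change of 0.63. Jak3 rose by 0.60 and Jak2 by 0.51. Jak1 was at 31.0 ± 0.375 and 36.5 ± 0.825 FPKM (SD, n = 3), with a log2 difference of 0.23 under the fold threshold. The limma adjusted p-values of these 4 genes were at most 7.29e-05. None of the 4 was called after H/R by limma, against 4.25% of all genes tested, or by limma voom. Of these genes 0 had an unadjusted p under 0.05.

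Among the other inhibitors Usp18 rose. Of the 4 remaining Socs genes tested (Socs4 to Socs7) none was called in EGR1OV by limma, against 16.4% of all genes tested. At an unadjusted p under 0.05 there were 2, and limma voom called 0 of 3. In a list of Pias genes, phosphatases and the Isg15 protease Usp18, 1 of 9 genes tested was called, namely Usp18, against the same 16.4%. In that list 4 of 9 had an unadjusted p under 0.05 and limma voom called 1 of 8. Usp18, which binds the interferon receptor and blocks its signal, rose from 1.3 ± 0.553 to 169 ± 4.24 FPKM (SD, n = 3), a log2 change of 6.23 (limma adjusted p 4.93e-10). Stat2 and Usp18 are both genes that interferon is known to induce.

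The partner of Stat2 and the known targets of their complex rose together. Of 12 genes tested 12 were called higher, against 9.87% of all genes tested, and the median log2 change was 5.58. The list was chosen with earlier results of these data known, so this count is a description. Mx1, Mx2 and Rsad2, also on the list, averaged under 0.5 FPKM in Sham and in H/R. They entered the test only through EGR1OV and could be called only as higher. Irf9, the DNA-binding partner of Stat2, was at 3.76, 5.14 and 3.9 FPKM in Sham and at 23.0, 22.6 and 22.1 FPKM in EGR1OV, a log2 change of 2.17 (limma adjusted p 6.33e-08). Isg15, a ubiquitin-like modifier, rose by 7.29, and the antiviral gene Ifit1 by 7.13. The transcription factor Irf7 rose by 6.95, and Ifit3 by 6.89. After H/R none of the 12 was called by limma, against 4.25% of all genes tested. At an unadjusted p under 0.05 there were 3, and limma voom called 1 of 12. Irf9 was at 3.29 ± 0.224 FPKM after H/R (SD, n = 3; log2 difference -0.29, limma adjusted p 0.0678).

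**Figure D4:**
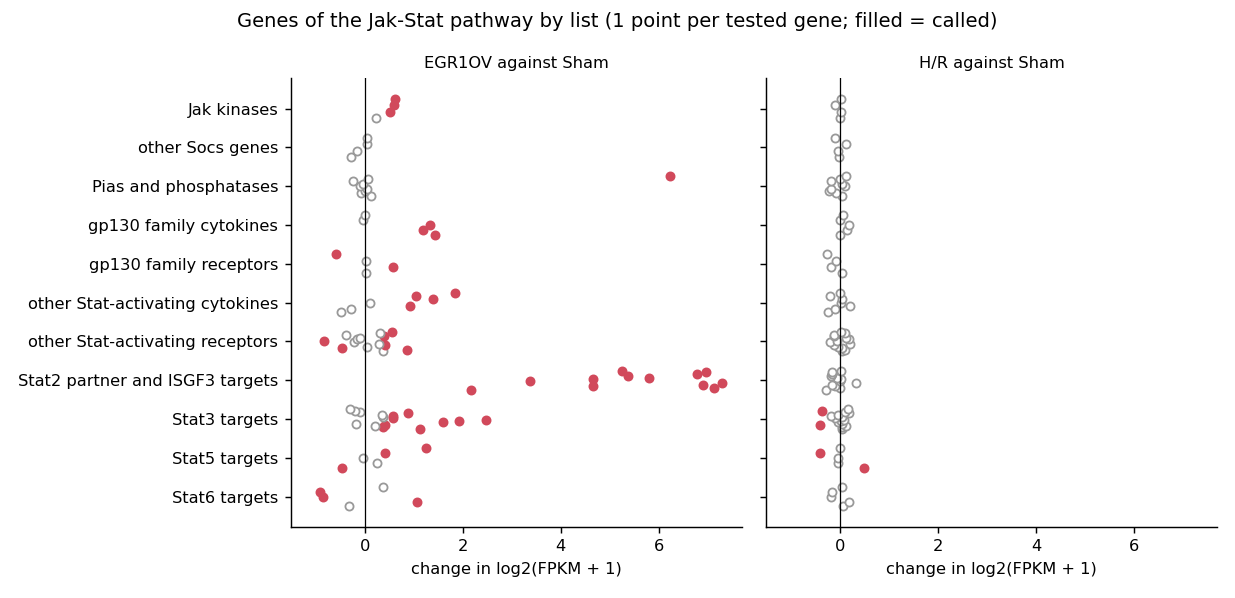
Change on the log2(FPKM + 1) scale (horizontal axis) of each tested gene in 11 lists of Jak-Stat pathway genes (rows), for EGR1OV against Sham and H/R against Sham, with filled points for called genes. The Stat2 partner and target list has 12 filled points of 12 in EGR1OV, with a median of 5.58, and none after H/R. Over all genes tested 9.87% were called higher in EGR1OV and 4.25% in either direction after H/R. The row of Pias genes and phosphatases also holds Usp18, its filled point.

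Several ligands upstream of the Stat genes were higher in EGR1OV. Over all genes tested 9.87% were called higher and 6.51% lower. Of 5 gp130 family cytokines tested 3 were called higher and none lower. Il11 rose from 43.9 ± 5.03 to 112 ± 7.06 FPKM and Lif from 36.6 ± 0.747 to 85.0 ± 2.41 FPKM (SD, n = 3 each), by 1.34 and 1.19 on the log2 scale. Il6 was at 0.0653 ± 0.0133 FPKM in Sham and 1.89 ± 0.272 FPKM in EGR1OV (SD, n = 3), and its call rests on very few Sham reads. Of 7 other cytokines tested 4 were called higher, namely Ifnb1, Csf2, Csf3 and Il15. Il6, Ifnb1 and Csf2 averaged under 0.5 FPKM in both Sham and H/R. They entered the test only through EGR1OV and could be called only as higher there, so these counts are partly set by the filter. Ifnb1, a type I interferon, was listed at 0 in all Sham and all H/R libraries and was at 3.05, 3.02 and 1.9 FPKM in EGR1OV (limma adjusted p 2.35e-06). Il15, which signals through Stat5 proteins, rose from 1.72 ± 0.238 to 4.19 ± 0.514 FPKM (SD, n = 3).

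Receptors moved in both directions. The shared chain gp130 (Il6st) was at 19.7 ± 0.505 FPKM in Sham and 20.3 ± 0.246 in EGR1OV (SD, n = 3), a log2 difference of 0.0383. Of the 4 receptors of its family tested, Osmr rose by 0.58 and Cntfr fell by 0.58. Of 14 other receptors tested 4 were called higher and 2 lower, against 9.87% and 6.51% of all genes tested. Il13ra1, a receptor chain upstream of Stat6, rose from 9.22 ± 0.639 to 17.7 ± 0.763 FPKM (SD, n = 3), a log2 change of 0.87. Ifnlr1 rose by 0.56 and Il15ra by 0.41, and Il15ra lost its call without Sham replicate 2 (0.35). Csf2rb fell by 0.82. The other receptor that fell, Il10ra, fell by 0.46 and is named after its value was seen. Il10ra averaged 0.224 FPKM in EGR1OV and entered the test only through Sham (0.681) and H/R (0.749). It could be called only as lower in EGR1OV. Csf2rb and Il10ra are also expressed by leukocytes, whose markers were lower in EGR1OV, but a link was not tested.

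Known targets of the other Stat genes gave a mixed picture. Of 16 Stat3 targets tested 9 were called higher and none lower in EGR1OV, against 9.87% and 6.51% of all genes tested. Their median log2 change was 0.4, and that of all genes tested was 0.0172. The lists of targets were chosen with earlier results of these data known, so these counts are descriptions. Lcn2, a secreted marker of tubule injury, rose from 151 ± 4.58 to 848 ± 8.97 FPKM (SD, n = 3), a log2 change of 2.48. The transcription regulators Cebpb, Cebpd and Bcl3 rose by 1.92, 1.60 and 1.12. Of 5 Stat5 targets tested 2 were called higher and 1 lower. Cyp7b1, a steroid hydroxylase, rose by 1.25, the kinase Pim1 rose by 0.41, and the growth factor Igf1 fell by 0.47. Pim1 lost its call without Sham replicate 1 (0.36) and after quantile normalization (0.31). Of 5 Stat6 targets tested 1 was called higher (Ccl17, by 1.07) and 2 lower (Mrc1 and Ccl24, by -0.90 and -0.85, named after their values were seen). Mrc1 and Ccl24 averaged 0.0506 and 0.031 FPKM in EGR1OV and entered the test only through Sham and H/R. They could be called only as lower in EGR1OV, so this count is partly set by the filter. Mrc1 and Ccl24 are known as macrophage genes, and the leukocyte markers fell in the same libraries, but a link between these falls was not tested.

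After H/R no gene was called in 9 of the 11 lists by limma, against 4.25% of all genes tested. At that share lists this short can hold none. Those 9 lists held from 0 to 6 genes each with an unadjusted p under 0.05, and limma voom called at most 1 gene in a list. Stat3 and Stat5 targets were the lists with calls, 2 of 16 and 2 of 5 genes tested. Pim1, which is on both lists, was at 8.65, 9.68 and 9.71 FPKM in Sham and 7.17, 6.64 and 6.78 FPKM after H/R, and it fell by 0.40 (limma adjusted p 0.00235). Igf1 was at 1.52, 1.33 and 1.24 FPKM in Sham and 2.09, 2.41 and 2.53 FPKM after H/R, and it rose by 0.50 (limma adjusted p 0.00456). Pim1 and Igf1 thus had opposite signs in the comparisons of H/R and of EGR1OV with Sham, which share their Sham libraries. Birc5 fell by 0.36 after H/R (limma adjusted p 0.0328), a call that was lost under 9 alternatives, among them leaving out Sham replicate 2 (adjusted p 0.0895), Sham replicate 3 (0.1), H/R replicate 2 (0.0872) or H/R replicate 3 (0.0921).

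For each of the 9 genes the genes with the most similar pattern were found by the root mean square difference of log2(FPKM + 1), each taken from its own Sham mean, over the 9 libraries, among genes that averaged 5 FPKM or more. A smaller value means a closer pattern. For Stat2 these were Parp14 (0.0621), Rnf213 (0.0687) and Bst2 (0.112). For Socs1 they were Ptgs2 (0.122), Atp10a (0.16) and Nfkbia (0.161), less close than for any other member. For Cish they were Sqstm1 (0.0561), Zcchc6 (0.0595) and Ptprn (0.06). For Stat3 the closest gene was Nr1h2 (0.0178), for Stat6 Wbp1l (0.0332), for Stat5a Ctdp1 (0.0361), for Stat5b Letm1 (0.0301), for Socs2 Khdrbs1 (0.0478) and for Socs3 Pon3 (0.0519). The points share their libraries, and the likeness is a description with no test.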

How the data were processed

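The authors deposited 1 table of FPKM per gene and library, with no pooling of replicates. The submitters' notes name Bowtie2 2.2.3, HISAT2 2.1.0, TopHat2 and mm9 without roles. Gene positions matched GENCODE M21 (GRCm38) for 94.7% of genes, so that build is used here. The counter and strand setting are not given in the sources used here. 26 symbols turned into dates were restored by identifier. Of 154344 low values, 98.7% were whole within 0.02 reads once exon lengths were applied, which gave the depth.

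Groups came from sample titles. Values were analysed as log2(FPKM + 1) in 1 limma fit of all 9 libraries (limma 3.58.1, R 4.3.3, eBayes with trend), for the 13985 genes that averaged 0.5 FPKM or more. That average was over all 9 libraries, so a gene could enter through 1 group alone. The fold thresholds against Sham are those the study states, and 1.3-fold was also applied between EGR1OV and H/R. The code was tested on simulated data. The alternatives were another pseudocount, filter, scaling, trend or fold threshold, the replicate block, only the groups compared, and each library left out. limma voom on recovered reads and a Gm23935 covariate were added after the data were examined. Exact permutation tests used scipy 1.17.1 (Python 3.11.15). Named pathway genes are up to 4 called genes per list with the largest change and at least 1 FPKM in the higher group. The members and lists were chosen with earlier results of these data known.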

Additional observations from a re-analysis of the deposited data

How the results depend on the processing

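Of 501 values of the 9 genes under 19 alternatives, 478 kept their direction and their side of the threshold, 13 lost a call, 5 gained one and 5 changed sign. The count of members called in EGR1OV against Sham (5) was 2 among the 5 members with a mean of at least 5 FPKM and 8 with no fold threshold, both by construction. For H/R against Sham (0) it was 1 with no fold threshold and 0 to 1 with a library left out. For EGR1OV against H/R (6) it was 3 at a mean of at least 5 FPKM. For Socs3, H/R against Sham, the log2 difference went from -0.0203 to 0.00768 with median-ratio scaling, 0.0202 with quantile normalization, 0.0255 without Sham replicate 1, 0.0315 without H/R replicate 2 (range -0.0761 to 0.0315 with a library left out) and 0.0299 with the Gm23935 covariate, and the cause was not tested. With that covariate Socs3 was at 0.36 against Sham and 0.33 against H/R, both under the threshold, and against H/R it was at 0.36 with median-ratio scaling and 0.31 with quantile normalization. Stat5a passed the threshold against H/R with a pseudocount of 0.1 (0.40) and by limma voom (0.42). Of 644 values of named pathway genes, 623 kept their call and 21 lost it.

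Over all genes, the calls for EGR1OV against Sham, H/R against Sham and EGR1OV against H/R were 2291, 594 and 2641. They were 6417, 1635 and 7135 with no fold threshold, 1315, 372 and 1520 at a mean of at least 5 FPKM, and limma voom called 931 for H/R against Sham. The share of calls that were higher in EGR1OV than in Sham was 60.3% as deposited, 54.1% with median-ratio scaling and 45.9% with quantile normalization, and for H/R against Sham it was 37.7%, 57.8% and 56.5%.

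The replicate block changed no member's call (5, 0 and 6 called). Correlations between libraries of the same number ran from -0.0206 to 0.0618. With EGR1OV set beside Sham, 3 libraries were closest to the library of their own number. With H/R set beside Sham this held for 1 library, and with EGR1OV set beside H/R for 0. EGR1OV replicate 2 and H/R replicate 1, of different numbers, reached 0.0668. These values do not settle whether the numbers pair the libraries. Reads limit Socs1, Socs3 and Stat5a most, with 44 to 185 reads per library.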
